A study of Mus musculus with 6 samples.

Results

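The nuclear genes that encode subunits of the mitochondrial respiratory chain and of the ATP synthase were followed in 5-day and 7-day mouse salivary gland organoids (mSGOs), complex by complex. The members were the protein-coding genes of the GENCODE mouse annotation whose symbol starts with *Ndufa*, *Ndufb*, *Ndufc*, *Ndufs* or *Ndufv* (complex I), with *Uqcr* (complex III), with *Cox4i*, *Cox5*, *Cox6*, *Cox7* or *Cox8* (complex IV) or with *Atp5* (complex V), together with *Sdha* to *Sdhd* (complex II). The *Ndufaf* genes, which encode assembly factors, were left out. This rule used no measured value and gave 88 of the 47643 gene IDs listed in the data: 39 in complex I, 4 in complex II, 8 in complex III, 19 in complex IV and 18 in complex V.

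Submandibular glands of female C57BL/6 mice, 8 to 12 weeks old, were dissociated, and the cells were grown in Matrigel after 1 passage. All organoids were untreated and non-irradiated, and all were kept in WRY medium, which holds R-spondin1- and Wnt3a-conditioned medium, EGF, FGF2, insulin, dexamethasone and the kinase inhibitor Y27632. From each of 3 mice, organoids were taken at day 5 and at day 7, which gave 6 libraries, and libraries of the same number share a mouse. RNA was measured in bulk by QuantSeq 3′ sequencing, in which a read marks the end of a transcript, so values are not divided by gene length. The cells were not sorted, and in such bulk RNA fewer cells of a type and less RNA per cell cannot be told apart.

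The respiratory chain sits in the inner mitochondrial membrane. Complex I takes electrons from NADH and complex II from succinate, both pass them to ubiquinone, complex III hands them on to cytochrome c and complex IV to oxygen. Complexes I, III and IV pump protons, and complex V, the ATP synthase, lets the protons flow back and makes ATP. Most subunits are encoded in the nucleus and a few in the mitochondrial DNA, so that each of these complexes except complex II is built from the products of both genomes. Several subunits of complex IV exist as paralogs with a tissue-restricted copy, such as the muscle forms *Cox6a2*, *Cox7a1* and *Cox8b*.

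The libraries held 1918198 to 2837397 reads in genes, of which the members took 1.13% to 1.24% at day 5 and 0.936% to 1.03% at day 7. Levels are given as CPM, counts scaled to a library of 1000000 reads with the TMM correction of library size. Epithelial markers (*Epcam*, *Krt5*, *Krt14*, *Krt8*, *Krt18*, *Krt7*, *Trp63* and *Cdh1*) were all detected and summed to 14434 to 18210 CPM at day 5 and 11545 to 15989 CPM at day 7, so epithelial cells were present. Markers of acinar cells, macrophages, endothelium, fibroblasts, striated muscle and erythroid cells summed to at most 25.5 CPM per list in any library, with *Csf1r*, *Adgre1*, *Cdh5*, *Col3a1*, *Ckm* and *Hbb-bs* among those at 0. Of 5 brown fat markers, *Ucp1*, *Plin1* and *Adipoq* were at 0, while *Cidea* and *Fabp4* brought the list to 162 to 210.1 CPM at day 5 and 277 to 1814 CPM at day 7, and whether this bears on the members was not tested. The 7-day libraries lay farther apart than the 5-day libraries, with a biological coefficient of variation of 0.293 against 0.0903.

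Of the 88 members, 81 had at least 1 count in at least 2 libraries and were tested between the days with the quasi-likelihood F test of edgeR, fitted on all 15792 genes that passed the same filter. Following the settings of the study, the threshold was an adjusted p under 0.05 (Benjamini-Hochberg) together with a log2 fold change above 0.6 or below -0.6. The threshold was passed by 12 of the 81 members (14.8%), against 12.0% of all genes tested, so members as a whole were called about as often as other genes. Of these, 5 rose (*Ndufa4l2*, *Ndufa6*, *Cox7a2l*, *Cox6b2* and *Uqcrh*), which is 6.17% of the members against 7.22% of all genes, and 7 fell (*Ndufa3*, *Ndufa4*, *Ndufa8*, *Ndufab1*, *Ndufb7*, *Cox5b* and *Atp5pf*), which is 8.64% against 4.82%. The same 12 members had an adjusted p under 0.05 whatever their fold.

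Most members were somewhat lower at day 7 without passing the threshold. The log2 fold change was below 0 in 63 of the 81 members (77.8%), against 50.4% of all genes, and the median was -0.24 against -0.01. The days did not overlap in 35 members (43.2%), against 30.9% of all genes. In 30 of these (37.0% of the members) all 3 day 7 values lay below all 3 day 5 values, against 15.5% of all genes, and in 5 members (6.17%) they lay above, against 15.4%. The median log2 fold change was -0.21 in complex I, -0.33 in complex II, -0.17 in complex III, -0.34 in complex IV and -0.40 in complex V.

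**Figure D1:**
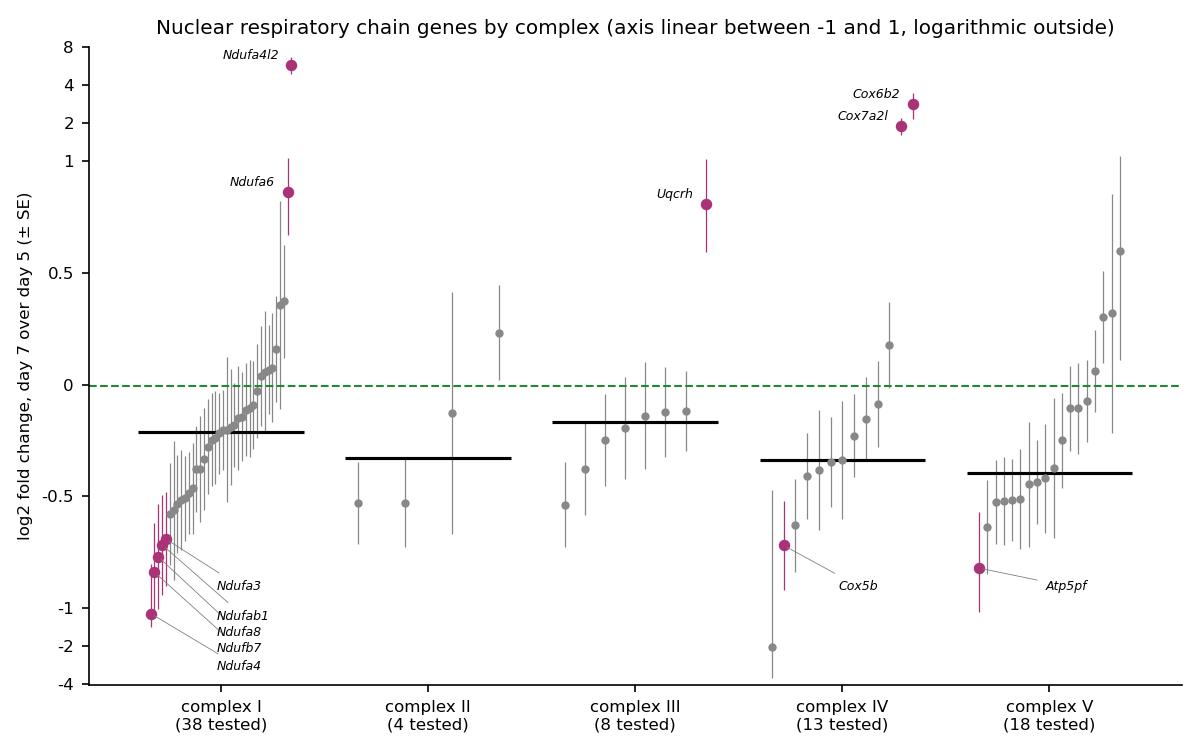
Log2 fold change between day 7 and day 5 (± SE, edgeR) of the 81 tested members, grouped by complex, with members past the threshold in purple, complex medians as black bars and the median of all 15792 genes as a dashed line. All 5 medians lie below the dashed line, and *Ndufa4l2*, *Cox6b2* and *Cox7a2l* stand above the rest.

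The number of calls rested on every single 5-day library. Without the library of mouse 1, 2 or 3 at day 5, 2, 2 and 3 members stayed past the threshold, all of them among the 12 and all of them higher at day 7, *Ndufa4l2* and *Cox7a2l* each time and *Cox6b2* as the third. No fall was then called, and the share of all genes called dropped to 5.81%, 5.17% and 5.83%. In these fits 18, 10 and 16 members were lower at an unadjusted p under 0.05 by edgeR, a cut at which the share of all genes is not given. With all 6 libraries, 29 of the 81 members and 4079 of all 15792 genes were under that cut in either direction. Without the day 7 library of mouse 2, 6 members and 6.86% of all genes were called. *Cox5b*, *Cox6b2*, *Ndufa3*, *Ndufa4*, *Ndufa8*, *Ndufab1* and *Ndufb7* lost their call. Without the day 7 library of mouse 3, 15 members and 16.7% of all genes were called. Of these 15 members 7 were among the 12, and *Atp5pf*, *Ndufa3*, *Ndufa8*, *Ndufab1* and *Uqcrh* lost their call. The medians of complexes IV and V were then -0.20 and -0.16. That of complex II, over 4 genes, lay between -0.52 (without mouse 1 at day 7) and -0.17 (without mouse 3 at day 7). *Ndufa4l2* and *Cox7a2l* were called with any of the 6 libraries left out.

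Complex I takes up NADH, and its nuclear core subunits carry the flavin and the iron-sulfur clusters that move the electrons. No core subunit passed the threshold. *Ndufs1*, which holds several of these clusters, had 113, 116 and 103 CPM at day 5 and 80.5, 84.0 and 69.0 CPM at day 7 in mice 1, 2 and 3, with a log2 fold change of -0.51 ± 0.19 (SE, adjusted p = 0.0908 by edgeR). The days did not overlap for *Ndufs1*, nor for *Ndufs8* (-0.52, edgeR adjusted p = 0.151), *Ndufv1*, the flavin-binding subunit (-0.24), and *Ndufv2* (-0.22), all lower at day 7. The days overlapped for *Ndufs3* (0.37, edgeR adjusted p = 0.367) and *Ndufs7* (0.08, 0.888).

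Among the 32 members with complex I symbols outside the core, 31 were tested. Of these, 2 rose and 5 fell, *Ndufa4l2* and *Ndufa4* included (22.6% called, against 12.0% of all genes). *Ndufa6*, a small subunit of the matrix arm that binds the acyl carrier protein, had 143, 153 and 151 CPM at day 5 and 245, 323 and 242 CPM at day 7, so every 7-day library was above every 5-day library. Its log2 fold change was 0.86 ± 0.19 (SE, adjusted p = 0.00570 by edgeR). *Ndufab1*, the mitochondrial acyl carrier protein, which also serves fatty acid and lipoic acid synthesis, went the other way, from 119.6, 127 and 100.2 CPM to 85.2, 77.1 and 47.5 CPM, a log2 fold change of -0.72 ± 0.22 (SE, adjusted p = 0.0429 by edgeR).

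*Ndufb7*, a subunit on the intermembrane side of the membrane arm, fell from 57.2 ± 7.01 to 32.0 ± 4.71 CPM (mean ± SD, n = 3), which gave a log2 fold change of -0.84 ± 0.22 (SE, adjusted p = 0.0167 by edgeR). *Ndufa8*, which faces the same side and is oxidised on import, had 62.3, 70.3 and 55.8 CPM at day 5 and 46.8, 37.8 and 25.0 CPM at day 7, with mouse 3 the lowest of its day on both days and a log2 fold change of -0.77 ± 0.24 (SE, adjusted p = 0.0416 by edgeR). For *Ndufa3*, a membrane arm subunit, the values were 89.5, 83.3 and 68.1 CPM and 56.0, 50.7 and 42.1 CPM, which gave -0.69 ± 0.21 (SE, adjusted p = 0.0370 by edgeR). All *Ndufb* genes tested, 10 of 10, had a log2 fold change below 0, from -0.84 to -0.03, and only *Ndufb7* among them was called. *Ndufb4* was closest to 0 in complex I, with 45.6 ± 2.78 CPM at day 5 and 44.7 ± 5.24 CPM at day 7 (mean ± SD, n = 3).

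*Ndufa4* and *Ndufa4l2* carry complex I symbols, but the *Ndufa4* product is a subunit of complex IV, and *Ndufa4l2* is its paralog, known as a gene induced in hypoxia. *Ndufa4l2* had counts of 0, 0 and 2 at day 5 and 94, 27 and 15 at day 7 in mice 1, 2 and 3, or 36.1, 9.37 and 7.34 CPM at day 7. It was thus all but undetected at day 5, and mouse 1 stood above the other two mice at day 7. The ratio of the summed counts was 64.9, with an exact 95% interval of 17.6 to 542 that covers counting error only, and the edgeR adjusted p was 0.000210. Without the day 5 library of mouse 3, which held both day 5 counts, *Ndufa4l2* was at least 26.6-fold higher at day 7, with 3 counts over the 2 remaining libraries taken as the floor, and with counting error on both days the exact lower limit was 21.3. Without the day 7 library of mouse 1, which held 94 of the 136 day 7 counts, the ratio was 30.7 (exact 95% interval 7.98 to 262). *Ndufa4* had 133, 120.0 and 95.5 CPM at day 5 and 72.5, 66.0 and 22.5 CPM at day 7, the lowest value being that of mouse 3, with a log2 fold change of -1.10 ± 0.30 (SE, adjusted p = 0.0210 by edgeR).

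Complex II, succinate dehydrogenase, is shared with the tricarboxylic acid cycle. None of its 4 genes passed the threshold. *Sdha*, the flavoprotein that oxidises succinate, had 132, 134 and 138 CPM at day 5 and 91.7, 96.2 and 91.5 CPM at day 7, values that were tight within each day and did not overlap, with a log2 fold change of -0.53 ± 0.18 (SE, adjusted p = 0.0660 by edgeR). *Sdhb*, the iron-sulfur subunit, went from 92.4, 121 and 122 CPM to 76.7, 70.5 and 85.7 CPM, also without overlap, and had a log2 fold change of -0.53 ± 0.20 (SE, adjusted p = 0.0912 by edgeR). Of the membrane anchors, *Sdhc* had 78.1 ± 6.32 CPM at day 5 and 91.4 ± 22.1 CPM at day 7 (mean ± SD, n = 3) with a log2 fold change of 0.23, and *Sdhd*, with only 83.0 counts in all libraries together, had -0.13 ± 0.54 (SE), an error too wide to set it apart from the other genes of the complex.

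In complex III, *Uqcrh*, the acidic hinge protein at the contact with cytochrome c, was the only member called. It had 254, 297 and 266 CPM at day 5 and 349, 440.2 and 640.3 CPM at day 7, a log2 fold change of 0.81 ± 0.22 (SE, adjusted p = 0.0193 by edgeR), with mouse 3 the highest at day 7. The other 7 members all had a log2 fold change below 0. *Uqcrq*, a small membrane subunit, came closest to a call, with 152, 173 and 159 CPM and 127, 97.9 and 109 CPM, no overlap and a log2 fold change of -0.54 ± 0.19 (SE, adjusted p = 0.0723 by edgeR). *Uqcr10*, *Uqcrc1*, *Uqcr11* and *Uqcrb* had log2 fold changes of -0.38, -0.25, -0.19 and -0.12, with the smallest edgeR adjusted p at 0.259. *Uqcrb* was the least changed member of the complex.

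Complex IV, cytochrome c oxidase, held 13 tested members, and 6 had too few counts to test. *Cox7a2l*, related to the *Cox7a* isoforms and known for joining complexes III and IV in supercomplexes, had 88.7, 96.9 and 98.4 CPM at day 5 and 185, 317 and 547 CPM at day 7 in mice 1, 2 and 3. All 7-day libraries were above all 5-day libraries, and among them mouse 3 was highest and mouse 1 lowest. The log2 fold change was 1.88 ± 0.29 (SE, adjusted p = 0.000271 by edgeR). *Cox6b2*, the testis form of the subunit that caps the complex on the intermembrane side, had counts of 1, 0 and 4 at day 5 and 12, 17 and 10 at day 7. The ratio of its summed counts was 7.45 (exact 95% interval 2.93 to 24.2, counting error only; edgeR adjusted p = 0.00814), and its level of 5.13 ± 0.681 CPM at day 7 (mean ± SD, n = 3) was far below that of its common paralog *Cox6b1* at 156 ± 29.9 CPM. Without the day 5 library of mouse 3, which held 4 of the 5 day 5 counts, the ratio of *Cox6b2* was 22.9 (exact 95% interval 3.87 to 926). C57BL/6 mice carry a short allele of *Cox7a2l*, a fact of the strain that these counts do not address.

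*Cox5b*, a zinc-binding subunit on the matrix side, was the member of complex IV that fell, from 96.9, 92.9 and 82.9 CPM to 61.4, 49.0 and 55.3 CPM, a log2 fold change of -0.72 ± 0.20 (SE, adjusted p = 0.0228 by edgeR). *Cox7b* missed the threshold narrowly, with 278, 291 and 238 CPM at day 5, 189, 206 and 125 CPM at day 7 and a log2 fold change of -0.63 ± 0.21 (SE, adjusted p = 0.0565 by edgeR), and it was called in the edgeR fit with a mouse term (adjusted p = 0.0322). *Cox6b1* (-0.41), *Cox5a* (-0.35), *Cox8a* (-0.38), *Cox6a1* (-0.23) and *Cox7a2* (-0.15) had log2 fold changes below 0 that passed no threshold. *Cox4i1*, the common form of subunit 4, was the least changed, at 158 ± 12.7 CPM and 148 ± 24.1 CPM (mean ± SD, n = 3).

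Apart from *Cox6b2*, the tissue-restricted forms of complex IV had few counts or none. *Cox4i2*, the lung and hypoxia form, and the annotated copy *Cox5b-ps* had 1 count each in all 6 libraries, and *Cox6a2*, *Cox7b2*, *Cox8b* and *Cox8c* had 0 counts. *Cox7a1*, the heart and muscle form, had 6 counts in all and did not pass, with a log2 fold change of -2.01 ± 1.54 (SE, adjusted p = 0.429 by edgeR). A count of 0 in a library allows up to 3 counts, or 1.06 to 1.56 per 1000000 reads of the library total without the TMM correction. In complex I, *Ndufb11b* also had 0 counts, and it completes the 7 members that were not tested.

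In complex V the F1 head makes ATP, the ring of c subunits turns in the membrane, and the peripheral stalk holds head and membrane part together. The threshold was passed by 1 of the 18 members (5.56%, against 12.0% of all genes). *Atp5pf*, coupling factor 6 of the peripheral stalk, fell from 113, 103 and 86.1 CPM to 66.0, 71.5 and 32.3 CPM, with mouse 3 the lowest on both days and a log2 fold change of -0.82 ± 0.25 (SE, adjusted p = 0.0396 by edgeR). *Atp5f1b*, the catalytic beta subunit, had 349, 381 and 333 CPM at day 5 and 246, 276 and 159.6 CPM at day 7, and its log2 fold change of -0.64 ± 0.21 (SE, adjusted p = 0.0547 by edgeR) missed the threshold but passed it in the edgeR fit with a mouse term (adjusted p = 0.0264).

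*Atp5po*, the stalk subunit that confers oligomycin sensitivity, had 209 ± 16.1 CPM at day 5 and 146 ± 17.2 CPM at day 7 (mean ± SD, n = 3), and its log2 fold change was -0.53 ± 0.19 (SE, adjusted p = 0.0738 by edgeR). *Atp5f1e*, the smallest subunit of the head, and the membrane subunits *Atp5mf* and *Atp5mj* had log2 fold changes of -0.52, -0.52 and -0.44 (edgeR adjusted p = 0.0752, 0.0951 and 0.141), and the days did not overlap for any of these. All 4 stalk genes, 4 of 5 genes of the F1 head and 4 of 5 small membrane subunits had a log2 fold change below 0. *Atp5if1*, the inhibitor of ATP hydrolysis, was the least changed, with 405, 423 and 388 CPM at day 5 and 367, 418 and 483 CPM at day 7.

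**Figure D2:**
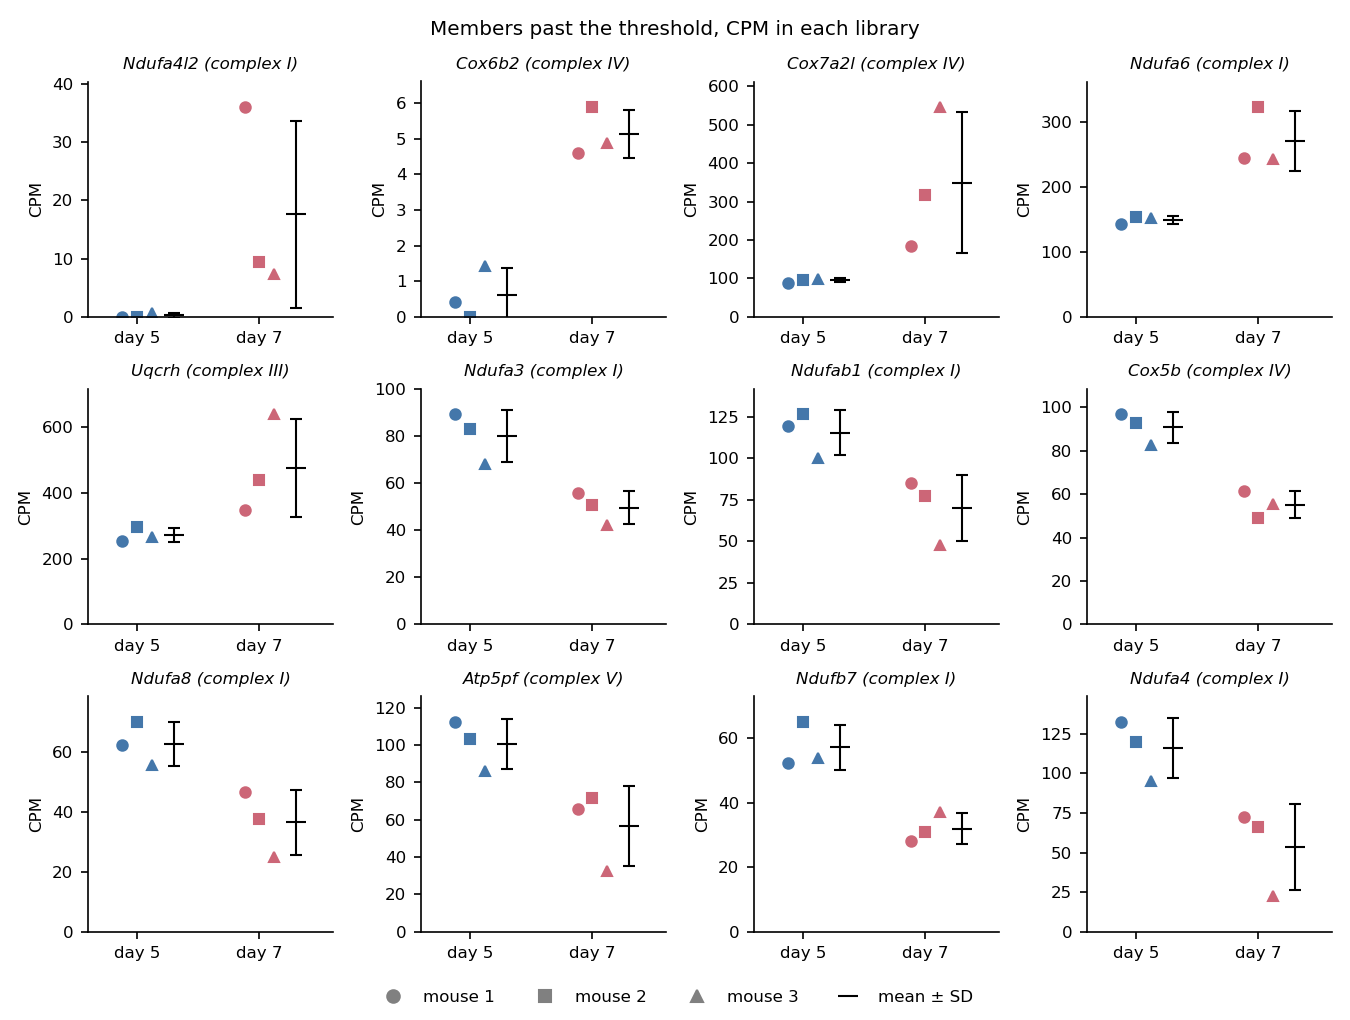
CPM of the 12 members past the threshold in each library, with 1 panel per gene, the symbol shape giving the mouse and the black bar the mean ± SD of 3 libraries (bars end at 0, and the vertical axes differ). In every panel the 5-day and 7-day libraries do not overlap. At day 7 mouse 3 is the highest for *Cox7a2l* and *Uqcrh*, and mouse 1 for *Ndufa4l2*.

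Summed over its members, complex I had 3548, 3863 and 3541 CPM at day 5 and 3172, 3166 and 3284 CPM at day 7, a mean change of -12.1%. Complex V went from 3985 ± 222 to 3261 ± 83.2 CPM (mean ± SD, n = 3), or -18.2%, and complex II from 330.2 ± 17.6 to 267 ± 19.7 CPM, or -19.0%. In these 3 complexes every 7-day library lay below every 5-day library. Complexes III and IV overlapped between the days, with changes of 4.48% and -1.49%, and in each 1 abundant gene rose while most others were lower. Without *Uqcrh*, complex III summed to 975 ± 43.4 and 827 ± 52.2 CPM, a change of -15.2%, and without *Cox7a2l*, complex IV summed to 2042 ± 88.6 and 1755 ± 60.2 CPM, a change of -14.1%. In both cases the days then did not overlap. Both genes were left out after their values were seen, and no test was run on these sums.

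**Figure D3:**
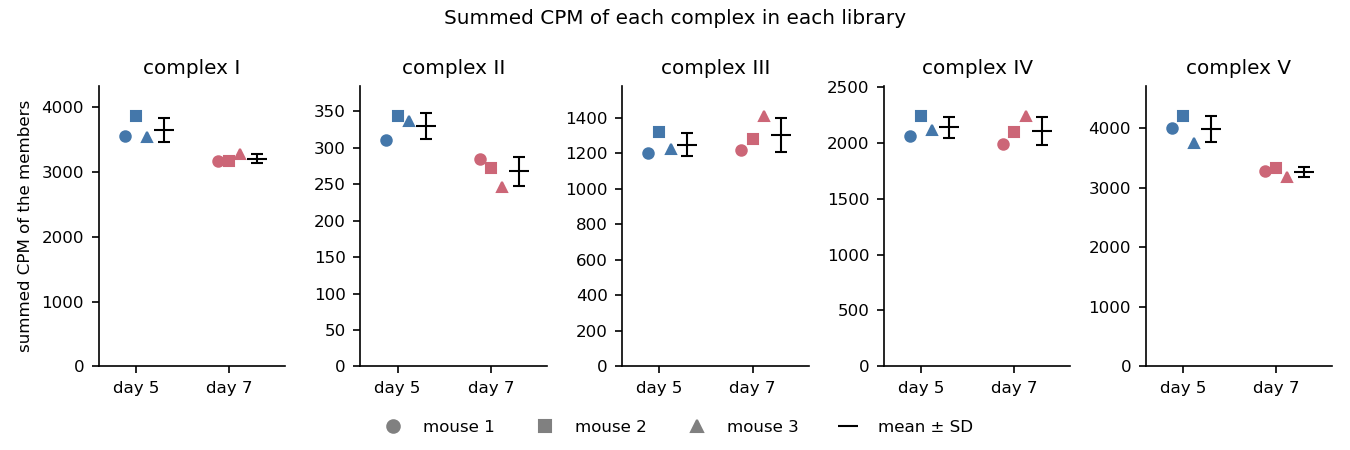
Summed CPM of the members of each complex in each library, with the symbol shape giving the mouse and the black bar the mean ± SD of 3 libraries (axes start at 0 and differ between panels). Complexes I, II and V are lower in every 7-day library, while complexes III and IV overlap between the days.

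There were 6 pairs of paralogs with at least 30 counts in each gene, for which the share of one gene in the counts of both was compared between the days. The share of *Cox7a2l* in its counts with *Cox7a2* was 31.0%, 28.6% and 31.5% at day 5 and 46.9%, 65.8% and 72.0% at day 7. *Ndufa4l2* took 0%, 0% and 0.749% of its counts with *Ndufa4* at day 5 and 33.2%, 12.4% and 24.6% at day 7. *Cox6b2* took 0.293% ± 0.348 of its counts with *Cox6b1* at day 5 and 3.24% ± 0.651 at day 7 (SD, n = 3). These shares were higher in 3 of 3 libraries at day 7, as was that of *Atp5mc2* with *Atp5mc1* (5.17% ± 0.709 and 10.8% ± 5.63). For *Atp5mc2* the gap was narrow, with 5.71% on 6 counts in mouse 1 at day 7 against 5.59% in mouse 1 at day 5. Each of these shares reached the lowest p possible with 3 libraries a day (0.1 by the exact two-sided permutation test, and 0.15 once adjusted over the 6 pairs by Benjamini-Hochberg). None could therefore pass 0.05.

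The c subunit genes encode the same mature protein from 3 loci, and *Atp5mc3* gave most of their counts. It had 744, 737 and 607 CPM at day 5 and 613, 649.5 and 298 CPM at day 7, with mouse 3 far below the other mice at day 7, while *Atp5mc1* had 59.0 ± 6.28 and 43.7 ± 21.5 CPM (mean ± SD, n = 3) and *Atp5mc2* only 59.0 counts in all. The share of *Atp5mc3* did not pass the test against *Atp5mc2* (exact permutation p = 0.4) or *Atp5mc1* (exact permutation p = 1), and after adjustment these were 0.48 and 1. None of the 3 genes passed the threshold of the test across all genes.

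**Figure D4:**
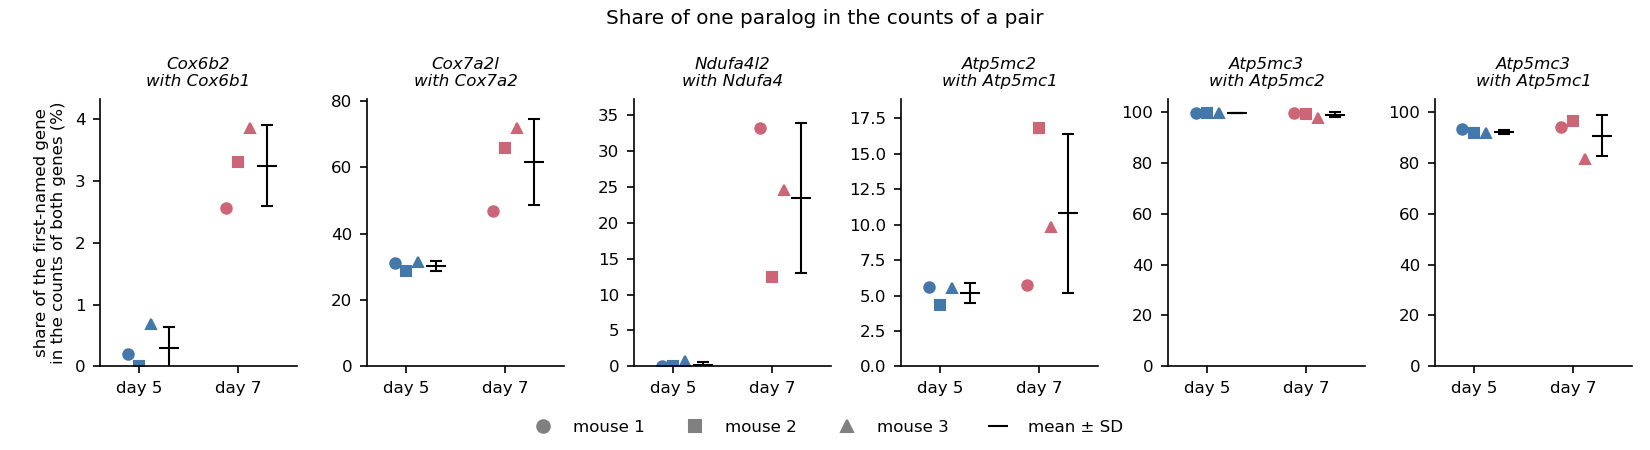
Share of the first-named gene in the summed counts of a pair of paralogs, in percent, in each library, with the symbol shape giving the mouse and the black bar the mean ± SD of 3 libraries (bars end at 0). The shares of *Cox7a2l*, *Ndufa4l2* and *Cox6b2* at day 7 lie above all day 5 shares, and those of *Atp5mc3* overlap between the days.

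The 7-day libraries also differed from each other in these genes. Among the 74 members of 10 CPM or more on average, the median coefficient of variation over 3 libraries was 8.09% at day 5 and 20.2% at day 7, against 11.1% and 23.0% in all 8172 genes of that level. The library of mouse 3 was the lowest of the 7-day libraries in 30 of the 74 members (40.5%) and the highest in 31 (41.9%), close to its shares of 39.1% and 42.6% in all genes of that level. It was lowest for *Ndufa4*, *Ndufa8*, *Ndufab1*, *Cox7b*, *Atp5pf*, *Atp5f1b* and *Atp5mc3* and highest for *Cox7a2l*, *Uqcrh* and *Ndufs3*. Over all 81 tested members, the median log2 difference from the day 5 mean was nonetheless alike in the 3 mice, at -0.24, -0.25 and -0.23. By complex it was less alike. In mice 1, 2 and 3 it was -0.26, -0.27 and -0.17 in complex I and -0.04, -0.28 and -0.46 in complex II. It was -0.08, -0.25 and -0.14 in complex III, -0.12, -0.20 and -0.13 in complex IV and -0.29, -0.12 and -0.38 in complex V.

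**Figure D5:**
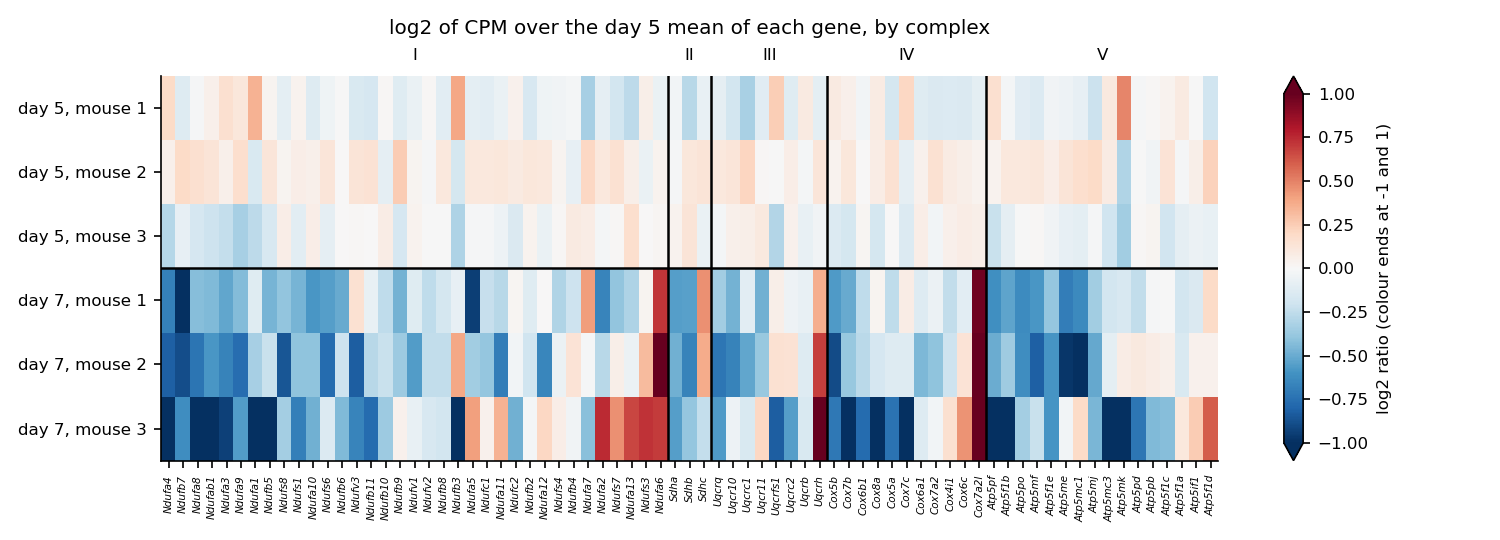
Log2 of CPM over the 5-day mean of each gene (colour, ending at -1 and 1) for 73 members with a mean of at least 10 CPM, in columns grouped by complex and ordered by log2 fold change, with 1 row per library. The 7-day rows are mostly below 0, and the row of mouse 3 at day 7 holds the strongest values in both directions.

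Genes that work with the chain were described from lists of other pathway genes. Of 199 such genes tested in 10 lists, 17 passed the threshold (8.54%, against 12.0% of all genes), and 28 did so with the mouse as a block (14.1%, against 14.8%). Without the day 5 library of mouse 1, 2 or 3 there were 8, 7 and 8 (4.02%, 3.52% and 4.02%, against 5.81%, 5.17% and 5.83% of all genes). Without the day 7 library of mouse 1, 2 or 3 there were 32, 9 and 35 (16.1%, 4.52% and 17.6%, against 16.1%, 6.86% and 16.7% of all genes). No gene passed in the lists of complex I assembly factors (0 of 15), complex II assembly factors (0 of 4), the complex III list with *Cyc1* (0 of 10), ATP synthase assembly factors (0 of 5) or the tricarboxylic acid cycle (0 of 17). In these lists 2, 0, 1, 2 and 3 genes had an unadjusted p under 0.05 by edgeR, against 4079 of all 15792 genes. Among 26 complex IV assembly factors 2 rose and 1 fell (11.5% called, against 12.0% of all genes). *Cox14* rose (70.8 ± 3.01 to 115 ± 11.4 CPM, mean ± SD, n = 3, edgeR adjusted p = 0.0208), as did *Higd2a*, a supercomplex assembly factor (91.4 ± 10.3 to 139.7 ± 12.8 CPM, 0.0435), and *Lrpprc*, which keeps mitochondrial mRNAs stable, fell (167 ± 15.4 to 104 ± 22.3 CPM, 0.0332). The log2 fold change of *Higd2a*, 0.61, lay just past the cut of 0.6. *Cox14* kept its call in 2 of 6 fits with a library left out, and *Higd2a* and *Lrpprc* in 1 each.

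Of 17 electron carrier genes, 1 rose and 2 fell (17.6% called, against 12.0% of all genes), all 3 from ubiquinone synthesis. *Coq8a* rose from 0.412, 1.00 and 1.80 CPM to 7.67, 17.7 and 25.9 CPM (3.87 ± 0.55 (SE, adjusted p = 0.000142 by edgeR) on the log2 scale). Its counts were only 1, 2 and 5 at day 5, against 20, 51 and 53 at day 7, so the size of its rise is uncertain. *Pdss1*, which makes the side chain of ubiquinone, fell from 15.7, 26.6 and 21.3 CPM to 4.99, 3.82 and 8.32 CPM (-1.92 ± 0.34 (SE, adjusted p = 0.00119 by edgeR)), and *Coq5* fell as well (-0.87, edgeR adjusted p = 0.0187). Cytochrome c, *Cycs*, did not pass (-0.65, 0.115). *Coq8a* and *Pdss1* kept their call in 6 of 6 fits with a library left out, and *Coq5* in 2. Among 20 regulators of mitochondrial biogenesis 3 fell and none rose (15% called, against 12.0% of all genes), namely *Clpp*, a matrix protease (-0.99, 0.0228), *Pprc1*, a PGC-1-related coactivator (-1.09, 0.0344) and *Esrra*, the estrogen-related receptor alpha (-0.84, 0.0472). *Clpp* and *Esrra* kept their call in 2 of 6 fits with a library left out, and *Pprc1* in 1. Of 77 mitochondrial ribosomal protein genes 4 fell and none rose (5.19%, against 12.0% of all genes), and *Mrpl20*, *Mrpl18* and *Mrpl54* (-1.12, -1.06 and -1.09) had the smallest p-values.

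The 13 subunit genes of the mitochondrial DNA are not members, but their products join the same complexes. Only 8 of them had counts. These summed to 25628, 26154 and 25574 CPM at day 5 and to 24022, 9118 and 9745 CPM at day 7 in mice 1, 2 and 3. Mouse 1 at day 7 was thus near the 5-day level and the other mice far below it. The summed nuclear members did not separate mouse 1 in this way, at 9936, 10148 and 10346 CPM. Of 8 mitochondrial genes tested, 3 fell and 1 rose (50% called, against 12.0% of all genes). The falls were *mt-Nd4* (-1.25 ± 0.25 (SE, adjusted p = 0.00292 by edgeR)), *mt-Cytb* (-1.35, edgeR adjusted p = 0.00802) and *mt-Nd1* (-1.20, 0.00825). *mt-Nd6*, which lies on the other strand, rose (1.83, edgeR adjusted p = 0.000515). With each of the 6 libraries left out in turn, *mt-Nd4* and *mt-Nd6* kept their call in 6 fits, *mt-Cytb* in 4 and *mt-Nd1* in 2. *mt-Co1*, the catalytic subunit of complex IV, had 644, 599 and 588 CPM at day 5 and 1116, 384 and 321 CPM at day 7, so that mouse 1 was above and the other mice below the 5-day values, with a log2 fold change of -0.01. Without the day 7 library of mouse 1 it was -0.79 and *mt-Co1* was called (edgeR adjusted p = 0.00486). In the list of the mitochondrial DNA, 5 genes were at 0 in all libraries, namely *mt-Nd4l*, *mt-Co2*, *mt-Co3*, *mt-Atp6* and *mt-Atp8*. The sum therefore says nothing about them. Whether reads of the mitochondrial genes were lost in counting was not tested.

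RefSeq promoter sequences, 250 bases before to 50 bases after an annotated start (build GRCm38.p6), were at hand for 68 members. *Ndufa4l2* was not among them. They were searched on both strands for the cores of 5 sites bound by regulators of these genes. The NRF1 core GCATGCGC was in 10 members (14.7%) against 3.05% of 27025 genes, and the YY1 core AAGATGGC was in 10 members (14.7%) against 3.19%. The estrogen-related receptor core AAGGTCA was in 8 members (11.8%, against 5.38%), the ETS core CCGGAAGT in 5 (7.35%, against 4.31%) and the hypoxia response core TACGTG in 1 (1.47%, against 3.67%), *Uqcr11*. A match is a description of letters and no shown binding.

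In the 7 complex I genes that held it, the YY1 core lay in the direction of the gene and 22 to 38 bases after the annotated start. Within these 50 bases, 8 members (11.8%) held it in that direction, against 1.04% of all genes, a count made after the positions were seen. The 7 stretches are shown to let their shared letters be compared, each 5′ to 3′ with the YY1 core in capitals. The core contains the letters of a start codon.
Ndufa3 (chr7:3617384-3617413, plus strand): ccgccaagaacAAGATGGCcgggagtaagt
Ndufa9 (chr6:126849097-126849126, minus strand): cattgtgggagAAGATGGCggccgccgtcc
Ndufb8 (chr19:44555393-44555422, minus strand): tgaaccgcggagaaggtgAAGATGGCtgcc
Ndufc1 (chr3:51408915-51408944, minus strand): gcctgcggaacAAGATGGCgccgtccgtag
Ndufs4 (chr13:114388045-114388074, minus strand): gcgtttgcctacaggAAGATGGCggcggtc
Ndufs6 (chr13:73328433-73328462, minus strand): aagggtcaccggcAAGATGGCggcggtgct
Ndufs7 (chr10:80249462-80249491, plus strand): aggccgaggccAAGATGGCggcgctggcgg
Of these 7 genes 1 passed the threshold. *Ndufa3* fell (-0.69), and *Ndufa9*, *Ndufs6*, *Ndufb8*, *Ndufc1*, *Ndufs4* and *Ndufs7* had log2 fold changes of -0.58, -0.46, -0.20, -0.18, -0.09 and 0.08.

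A further 4 members past the threshold held one of the cores, and their stretches are shown so that the letters around each core can be seen. *Ndufa6*, which rose, had the NRF1 core 83 bases before the start, and *Ndufa8*, which fell, had it 8 bases before the start. *Uqcrh*, which rose, had the ETS core on the opposite strand, and *Atp5pf*, which fell, had the YY1 core 88 bases before the start of one of its annotated promoters. The capitals mark these cores.
Ndufa6 (chr15:82354356-82354385, minus strand): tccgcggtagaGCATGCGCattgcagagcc
Ndufa8 (chr2:36049328-36049357, minus strand): tcgctggagacGCATGCGCagatggtaccg
Uqcrh (chr4:116075063-116075092, minus strand): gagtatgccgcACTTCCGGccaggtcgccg
Atp5pf (chr16:84835046-84835075, minus strand): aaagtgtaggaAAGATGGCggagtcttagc

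Subunit genes of the chain have many processed pseudogenes, and copies near the 3′ end could share reads with the gene. Of the 88 members, 25 had another stretch of at least 100 bases with at least 95% identity to their last 300 bases in the genome GRCm39, among them 2 of the 12 called, *Cox7a2l* (1 copy of 300 bases, 99.0% identity) and *Uqcrh*, whose annotated end holds a repeat. The levels of both are therefore uncertain. Tested members without a copy had a median log2 fold change of -0.21 (58 genes) and those with a copy -0.33 (23 genes). *Atp5mc2*, *Atp5mg* and *Ndufs5*, with 59.0, 44.0 and 86.0 counts in all, had such copies, and *Sdhd* had none.

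Whether counting used the strand is not stated, and 20 members overlap a gene on the opposite strand, of which 4 were past the threshold. Their partners were not called: *Shmt2* beside *Ndufa4l2* (log2 fold change -0.37, edgeR adjusted p = 0.353), *Smdt1* beside *Ndufa6* (0.06, 0.919), *Tfpt* beside *Ndufa3* (-0.54, 0.381) and *Jam2* beside *Atp5pf* (-0.36, 0.633). In the annotation of GRCm39 *Ndufa4l2* lies at chr10:127350818-127353038, *Ndufa4* at chr6:11897630-11907496, *Cox7a2l* at chr17:83765970-83824759, *Uqcrh* at chr4:115923314-115932296 and *Ndufa6* at chr15:82234340-82238523. The counts are of reads at the ends of these transcripts, and no exon or isoform can be read from them.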

How the data were processed

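The deposited values are raw read counts, 1 for each Ensembl gene ID in each library, which the authors made from QuantSeq 3′ reads on the mouse assembly GRCm39. Which aligner, gene annotation and strand setting they used, and how multiply aligned reads were counted, is not given in the sources used here. Each file ends with 5 entries that name no gene, which held 13.7% to 14.4% of reads at day 5 and 9.12% to 9.74% at day 7 and were left out. Gene names, types and coordinates came from GENCODE vM39 by exact match of the ID, which named 43465 of 47643 IDs (91.2%).

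A gene needed 1 or more counts in 2 or more libraries. Day 7 was set against day 5 in edgeR 4.0.16 (R 4.3.3) with glmQLFit and glmQLFTest, TMM scaling, robust = FALSE and no other term. The Benjamini-Hochberg adjustment ran over the whole set of tested genes, and tests were two-sided. The SE of a log2 fold change was taken as its size over the square root of F. The fit was also run on simulated counts, drawn with the same dispersion on both days. That run does not cover the larger spread between the 7-day libraries. CPM are counts over the scaled library size times 1000000. The total count per library (1918198 to 2837397) sets the precision, and a count of 0 allows up to 3 counts. All pairs of libraries differed by more than sampling noise.

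A shared library number means a shared mouse, per the titles. Their deviations from the mean of the day had correlations of 0.137 (mouse 1), -0.100 (mouse 2) and 0.162 (mouse 3) over 8172 genes that averaged 10 CPM or more. Between libraries of different mice the correlations ran from -0.184 (mouse 3 at day 5, mouse 1 at day 7) to 0.117 (mouse 1 at day 5, mouse 2 at day 7). The mouse as a block is an alternative, since the methods of the study name no block.

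The members, the pathway and marker lists, the motifs and the alternatives were chosen with earlier results of these data known. The genes named are every member past the threshold, the 6 smallest p-values of each complex, both genes of each pair of paralogs, core subunits of complex I (an item of which is not reported here), the least changed member of each complex with a mean of at least 10 CPM, up to 3 genes per pathway list with an adjusted p under 0.05, and members not tested or with fewer than 30 counts. *Cycs*, *mt-Nd1*, *mt-Co1*, *Ndufa9*, *Ndufb8*, *Ndufc1*, *Ndufs4*, *Ndufs6*, *Ndufs5* and *Atp5mg* were added after their values were seen. Paralog shares were compared by exact permutation with scipy. Promoters came from a RefSeq table on another build, so none of their coordinates was joined to the counts. Copies of the last 300 bases were searched with BLAST. The alternatives were other scalings (size factors of DESeq2, upper quartile, library totals), DESeq2 1.42.0, limma voom 3.58.1 with a weight for each day, other filters, robust = TRUE, the most abundant gene ID left out, glmTreat, a larger minimum fold and each library left out in turn.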

Additional observations from a re-analysis of the deposited data

How the results depend on the processing

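Members past the threshold numbered 12, where 12.0% of all genes tested were called. With scaling by library totals only they numbered 20, 5 higher and 15 lower, and 12.4% of all genes were called. The median of all genes was then -0.10. The count of members was 3 with glmTreat at a minimum log2 fold change of 0.6, 4 with a minimum of 1, and 2 to 16 with each library left out in turn. With a library left out, 5.17% to 16.7% of all genes were called. At any fold the 12 calls, beside 1912 of all 15792 genes, became 20 with library totals only and 2 to 27 with a library left out. Under DESeq2, voom, upper quartile scaling, other filters, robust = TRUE, the block or without the most abundant gene ID the count of members was 8 to 14, with 5 higher in each. The share of all genes called there was 9.89% (DESeq2) to 16.3% (filterByExpr). The 5 rises kept their call in all 10 of these fits with all libraries, *Ndufa4* lost it with filterByExpr and robust = TRUE, *Ndufa8* with DESeq2 and filterByExpr, and *Ndufab1* and *Atp5pf* with filterByExpr.

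With the mouse as a replicate block 14 members were called, the 12 and *Atp5f1b* and *Cox7b*, where 14.8% of all genes were called. Pathway genes called numbered 28 (14.1%) instead of 17 (8.54%). Without the block and with a library left out they numbered 7 to 35 (3.52% to 17.6%, against 5.17% to 16.7% of all genes). The block changed no other call among the members.

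Library totals moved the medians to -0.30 in complex I, -0.26 in complex III and -0.42 in complex IV, and filterByExpr that of complex IV to -0.28. With a library left out the medians ranged from -0.28 to -0.18 in complex I, -0.45 to -0.20 in complex IV and -0.46 to -0.16 in complex V. The ratios of the summed CPM, day 7 over day 5, were 0.823, 0.923 and 0.768 for complexes I, IV and V with library totals, against 0.879, 0.985 and 0.818, and ranged from 0.866 to 0.905 and from 0.796 to 0.841 for complexes I and V with a library left out. Without *Uqcrh* and *Cox7a2l*, a choice made after seeing the data, the ratios of complexes III and IV were 0.848 and 0.859. The sign turned for values near 0. These were, with library totals, *Atp5if1* (-0.033) and *Ndufs7* (-0.017), and with voom *Sdhd* (0.035). With a library left out the log2 fold change ranged from -0.046 to 0.15 for *Atp5if1*, -0.12 to 0.053 for *Ndufb4*, -0.14 to 0.27 for *Ndufs7* and -0.70 to 0.84 for *Sdhd*, and the difference in the share of *Atp5mc3* against *Atp5mc1* from -4.32 to 3.03 percentage points. The cause was not tested.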
